A study of Mus musculus with 6 samples.

Results

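Small nucleolar RNAs (snoRNAs) detected in the mouse right atrium (RA) were compared between sham-operated and volume-overloaded (VO) mice. The members are the rows of the deposited expression table whose annotated type is snoRNA or scaRNA (small Cajal body-specific RNA) and whose mean FPKM (fragments scaled to gene length and to library size) over the 6 libraries was at least 1. The rule kept 60 of 1529 such rows, 59 annotated as snoRNA and 1 (Gm24644) as scaRNA, among 54093 genes of the table. Of the 1529 rows, 198 were above 0 in at least 1 library. The members were thus chosen by their own level, which is given as a description. The mean was taken over both groups, so that a member could enter through a single group: 37 members had a group mean FPKM of at least 1 in both groups, 12 in VO alone and 11 in sham alone.

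All libraries came from RA myocardium of wild-type (WT) C57BL/6 pups at postnatal day 21, with 3 libraries from sham-operated animals and 3 from animals in which an opening between the abdominal aorta and the inferior vena cava (ACF) had been made at postnatal day 7. The pups were male or female, and the sex of each library was not used here. The extract was total RNA, the libraries were made with a NEBNext Ultra RNA kit, and the labels do not say whether polyadenylated RNA was selected. Nothing in the labels says whether a library holds 1 animal or several, so that p-values measure the spread between these libraries.

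snoRNAs are short nuclear RNAs that guide the chemical modification and cleavage of ribosomal RNA. The C/D class carries a C box and a D box and directs methylation of the ribose, while the H/ACA class ends in an ACA box and directs the conversion of uridine to pseudouridine; scaRNAs do the same for spliceosomal RNAs. Most mammalian snoRNAs lie in introns of other genes, some of which encode ribosomal and other translation proteins. They are cut out of the spliced intron and carry no poly(A) tail.

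Sequences are shown for members on which the results turn, from the GENCODE M21 transcripts on GRCm38, whose coordinates were identical for all 60 members. Each is printed from its first to its last base on its own strand, with the boxes found by letters in capitals: TGATG in the first 20 bases for a C box, CTGA in the last 20 bases for a D box, and ACA followed by 2 to 4 last bases for an ACA box. C and D boxes were marked and counted only where both were found, so that Gm22771 holds a CTGA near its end that is not marked. Snord91a (chr11:74905424-74905516, + strand) and Gm22771 (chr11:74906109-74906199, + strand) lie in introns of Tsr1 and are 72.0% identical. Gm22270 (chr5:107905177-107905308) and Gm26387 (chr5:107907345-107907476) lie in introns of Rpl5, both on the + strand, and are 94.7% identical. Gm25373 (chr6:145464189-145464303, + strand) had the second most fragments. Gm22571 (chr9:64175873-64175942, + strand) and Snord8 (chr14:52209785-52209894, - strand) stood above sham in every VO library and had the smallest p of such members. Gm22615 (chr13:62543434-62543503, - strand) is shown because Gm23713 (chr13:62136762-62136831, + strand) is identical to it over every base.
Snord91a: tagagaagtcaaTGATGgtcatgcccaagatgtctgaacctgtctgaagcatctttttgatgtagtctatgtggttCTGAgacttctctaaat
Gm22771: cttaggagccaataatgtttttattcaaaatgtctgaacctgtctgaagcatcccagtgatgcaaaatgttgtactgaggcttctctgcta
Gm22270: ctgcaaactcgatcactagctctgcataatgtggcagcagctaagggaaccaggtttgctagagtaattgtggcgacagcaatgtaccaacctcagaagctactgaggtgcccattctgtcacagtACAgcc
Gm26387: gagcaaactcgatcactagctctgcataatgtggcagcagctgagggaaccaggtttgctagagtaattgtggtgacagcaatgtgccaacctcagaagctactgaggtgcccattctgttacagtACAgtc
Gm25373: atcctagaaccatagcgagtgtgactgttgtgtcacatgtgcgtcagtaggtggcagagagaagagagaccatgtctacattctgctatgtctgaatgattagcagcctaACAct
Gm22571: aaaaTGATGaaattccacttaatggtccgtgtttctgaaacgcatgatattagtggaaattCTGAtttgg
Snord8: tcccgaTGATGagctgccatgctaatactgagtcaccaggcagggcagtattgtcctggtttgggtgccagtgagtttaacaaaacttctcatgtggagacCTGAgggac
Gm22615: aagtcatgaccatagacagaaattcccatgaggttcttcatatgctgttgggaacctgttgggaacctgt

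By these letters, searched on the strand of the gene alone, 24 members held both C and D boxes, 23 an ACA box, 1 (Rnu73b) both kinds and 12 neither. Among all 1529 rows, 22.7% held C and D boxes, 44.2% an ACA box and 32.6% neither. Of the rows with a C/D name (Snord and the like), 85.6% held C and D boxes, and of those with an H/ACA name 95.1% held the ACA box. Members with C and D boxes were 64 to 144 bases long (median 77.5), and those with an ACA box 93 to 246 bases (median 132). The names were Snord for 15 members, Snora for 5 and predicted-gene (Gm) names for 38. RefSeq lists 45 members as snoRNA and 2 (Gm25373 and Gm25965) as pseudogenes, while 12 were not matched.

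Very few fragments stood behind these values. Multiplied by gene length, 100% of the nonzero FPKM values of a library were whole multiples of its smallest such product (within 0.01 fragments), so that the number of fragments could be recovered. The 6 libraries held 15963082 to 17237903 fragments, and the 60 members together held 1650 of them over all libraries, with 239, 277 and 258 in sham and 326, 270 and 280 in VO. A single fragment was worth 0.245 to 0.940 FPKM, depending on the member's length. The median member had 18.5 fragments over all 6 libraries together, and the range was 7 to 162. Of the 360 values (60 members in 6 libraries), 65 (18.1%) were at 0, 201 (55.8%) rested on at most 3 fragments, and 325 on at most 10. For comparison, the median of all 12621 tested genes was 2694 fragments. Only 24 members were above 0 in all 6 libraries, 29 had a mean under 3 fragments per library, and 7 were at 0 in 3 or more libraries.

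**Figure D1:**
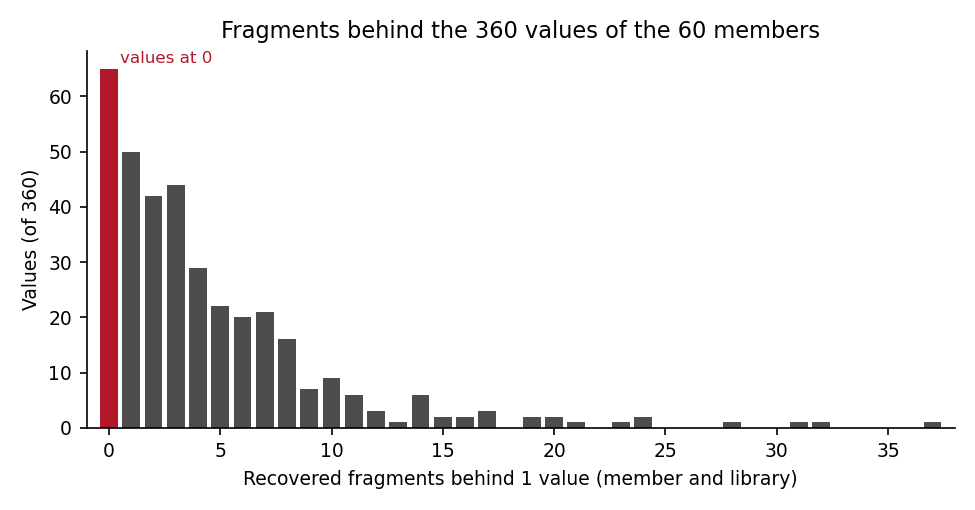
Number of values (y axis) by the recovered fragments behind each value (x axis) for the 60 members in 6 libraries, 360 values in all; the red bar counts values at 0. The bars fall off from 65 values at 0 fragments, 201 values rest on at most 3 fragments, and the highest value is 37.

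The threshold falls within the worth of a few fragments. Just inside it stood Gm23747, with a mean of 1.00 FPKM from 14 fragments, and Gm24233, with 1.02 FPKM from 12 fragments. Just outside it stood Gm26397, with 0.959 FPKM from 13 fragments, and DQ267102, with 0.949 FPKM from 7 fragments.

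Most of the detected snoRNAs lay within introns. By position, 49 members (81.7%) lay in an intron of a gene on the same strand, 7 in an intron of a gene on the other strand, 2 in an exon on the same strand (Gm22486 in Ptcd3 and Gm24616 in Eif4a2), and 2 outside genes (Snord104 and Snora17). Among all rows, the same-strand intron class held 529 rows, of which 9.26% were members, and 630 rows lay outside genes, of which 0.317% were members. In the paper each read of a pair was longer than the median member of 112.5 bases (range 64 to 246). The counting options, strand included, are not given in the sources used here. Fragments from the snoRNA, from unspliced RNA of its host and from an overlapping gene thus cannot be told apart.

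Rows in introns of highly expressed genes were members more often. Among the same-strand intronic rows, 0.980% were members where the host gene averaged under 1 FPKM (306 rows), 11.1% where it averaged 1 to 10 FPKM (117 rows), 20.8% at 10 to 100 FPKM (77 rows), and 60.7% at 100 FPKM or more (28 rows). The 51 members with a host on their strand lay in 44 genes, 47 of the members in protein-coding hosts. Of these members, 13 lay in ribosomal protein genes, among them Rpl4, Rpl5, Rpl17, Rpl37 and Rps16, and 17 in ribosomal protein or translation factor genes. The 7 hosts with 2 members each were Tsr1, Rpl4, Rpl5, Rpl17, Rps3a1, Wdr43 and Hspa9. Within the members, fragments and host level were nearly unrelated (Spearman's rho of 0.07 across 51 members, which share libraries and in part hosts, given as a description). These members had already passed the cut at a mean FPKM of 1, and their fragments are not divided by length. This rho thus does not bear on the trend over all intronic rows. Per length, 45 members had a lower mean FPKM than their host and 6 a higher one, with Snord91a at 2.74 times the mean FPKM of Tsr1 and Snord7 at 5.36 times that of AA465934.

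**Figure D2:**
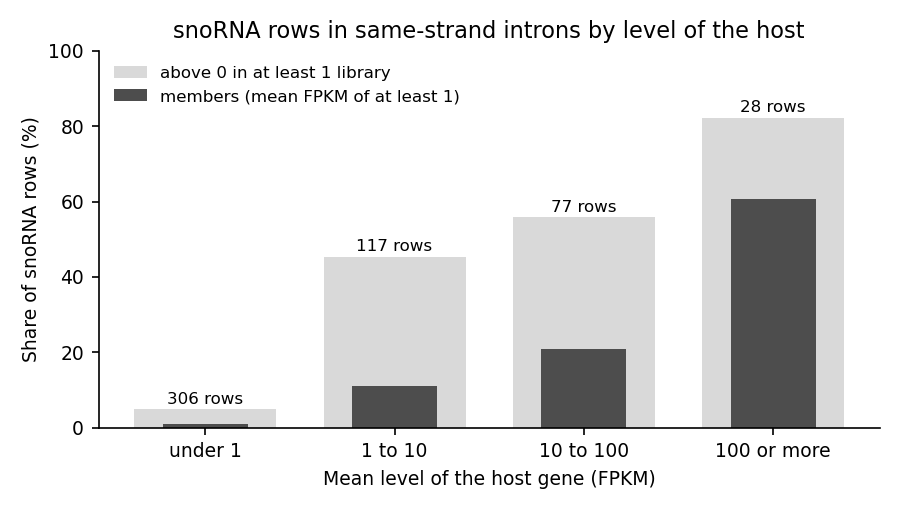
Share of snoRNA and scaRNA rows (y axis, %) in introns of a gene on the same strand, by the mean FPKM of that gene (x axis), with the share above 0 in any library (light bars) and the share that are members (dark bars). The share of members climbs from 0.980% of 306 rows to 60.7% of 28 rows.

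Several of the best known snoRNAs were not among the members. All copies of U3 in the table (Rnu3a and Rnu3b1 to Rnu3b4), which acts in the first cleavages of pre-ribosomal RNA, were listed at 0 in every library, as were U8 (Snord118), U13 (Snord13), the U14 copies (Snord14a, Snord14c, Snord14d and Snord14e) and U17 (Snora73a and Snora73b). The 10 snoRNA rows inside Gas5, a noncoding host gene with a mean of 8.82 FPKM, held 0 fragments, and so did the 5 rows inside Snhg12. All rows inside these hosts overlap annotated exons of the host, and the U14 copies, Snora73a and Snord33 also lie in exons. The U3, U8 and U13 rows and Snora73b do not. Of 153 rows in a same-strand exon 6 were above 0, against 134 of 529 in a same-strand intron. Whether reads that match several genes were counted is not given, so that a 0 in an exon need not mean an absent snoRNA. The snoRNAs of Rpl13a, which have been linked to lipotoxic stress in cells, held 1 (Snord32a), 0 (Snord33), 4 (Snord34) and 2 (Snord35a) fragments over all libraries. The imprinted cluster on chromosome 7 held 0 fragments on 210 rows and that on chromosome 12 held 14 fragments on 23 rows, with 0 members. Of the other RNAs without a poly(A) tail that were looked up, Rmrp and Rpph1, the RNA parts of the enzymes RNase MRP and RNase P, were listed at 0, and Rn7sk held 6 fragments.

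The 6 members with the most fragments held 584 of the 1650 (35.4%). Snord91a, in an intron of the small-subunit assembly factor gene Tsr1, had the most, with 15, 37 and 24 fragments in the sham libraries and 32, 23 and 31 in VO. In FPKM these were 16.4 ± 6.38 in sham and 18.1 ± 2.65 in VO (SD, n = 3 each). The groups overlapped, sham holding both the lowest and the highest library. On the log2 scale VO minus sham was 0.21 (SE 0.28), with an adjusted p of 0.738 by limma, and the ratio of fragments was 1.09 with a 95% counting interval of 0.792 to 1.51. Its neighbour Gm22771 had 15, 17 and 8 fragments in sham and 10, 12 and 17 in VO. It differed by -0.05 (SE 0.32, adjusted p = 0.953 by limma), so that both Tsr1 snoRNAs overlapped between the groups. Tsr1 itself averaged 7.01 ± 0.659 FPKM in sham and 5.61 ± 0.591 in VO (n = 3 each), a log2 difference of -0.32 with an adjusted p of 0.410 by limma.

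Gm25373, on the strand opposite to Lmntd1, had 20, 14 and 14 fragments in sham and 28, 21 and 14 in VO. Gm24119, in the gene of the mitochondrial phosphate carrier Slc25a3, had 10, 9 and 20 in sham and 16, 17 and 14 in VO. Both overlapped between the groups, with log2 differences of 0.30 (SE 0.26) and 0.30 (SE 0.30) and adjusted p-values of 0.596 and 0.645 by limma. Gm22478, on the strand opposite to Snrnp70, which encodes a protein of the U1 particle, had 11, 8 and 7 fragments in sham and 16, 19 and 10 in VO. The highest sham library stood above the lowest VO library, and the log2 difference of 0.70 (SE 0.28) had an adjusted p of 0.410 by limma. It was the only one of the 15 members with at least 30 fragments to have an unadjusted p under 0.05.

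Gm22270, Gm26387 and Snord72 lay in ribosomal protein genes. Gm22270 in Rpl5 had 11, 14 and 4 fragments in sham and 8, 14 and 24 in VO, and its near copy Gm26387 had 0, 5 and 6 in sham and 11, 8 and 6 in VO. Snord72 in Rpl37 had 3, 19 and 4 in sham and 6, 10 and 7 in VO. A single sham library thus held 19 of the 26 sham fragments of Snord72. The log2 differences were 0.64 (SE 0.55), 2.09 (SE 1.20) and 0.23 (SE 0.62) in that order, with adjusted p-values of 0.596, 0.469 and 0.879 by limma. Reads of Gm22270 and Gm26387 may have been divided between them, and how the counting treated reads with several matches is not given in the sources used here.

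Snord53, in the gene of the nucleolar protein Wdr43, had 3, 9 and 2 fragments in sham and 10, 10 and 6 in VO, a log2 difference of 1.07 (SE 0.49, adjusted p = 0.422 by limma). Snora31, in the translation-linked gene Tpt1, had 3, 13 and 8 fragments in sham and 5, 4 and 2 in VO, a log2 difference of -0.996 (SE 0.511, adjusted p = 0.440 by limma). Both overlapped between the groups. Over all members, the spread of fragments within groups was a median of 1.98 times what counting error alone gives (the chi-square over its degrees of freedom), and 30 members were above 2. Snora69 in Rpl39, with 3, 0 and 0 fragments in sham and 1, 0 and 12 in VO, stood at 6.99.

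**Figure D3:**
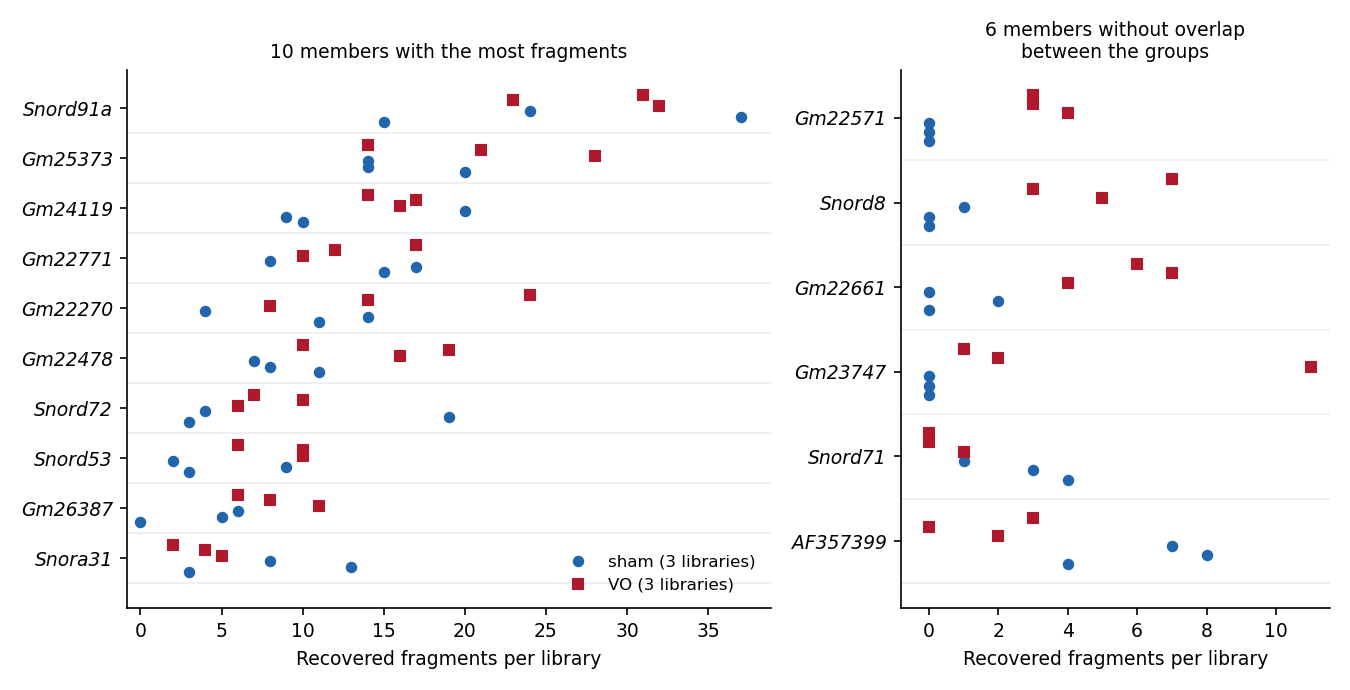
Recovered fragments in each library (x axis) for the 10 members with the most fragments (left) and 6 members whose groups do not overlap in FPKM (right), with blue circles for the 3 sham libraries and red squares for the 3 VO libraries. On the left every member has overlapping groups, and on the right no library exceeds 11 fragments.

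Across members, no snoRNA passed the adjusted threshold. By limma with Benjamini-Hochberg adjustment over 12621 genes, 0 of 60 members had an adjusted p under 0.05, beside 1 gene in all (0.00792%), Nppb. At an unadjusted p under 0.05, 6 members were higher in VO, where 3.89% of all tested genes were, and 4 were lower, where 8.08% were. The balance turned with single libraries, to 4 higher and 6 lower without VO 1, 6 and 6 without VO 2, and 7 and 2 without sham 3. Of all unadjusted calls over the tested genes, 32.5% were higher in VO, and this share became 69.0% when the values were rescaled to TPM, which gives every library the same summed value and 59.9% when scaled by fragment totals. With TPM, 7 members were called higher and 3 lower. limma-voom on the recovered fragments called 4 members higher and 2 lower at an unadjusted p, and 0 at an adjusted p (lowest 0.380). The members called by limma had a median of 16 fragments and at most 71.

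In 4 members every VO library stood above every sham library, against 8.25% of all tested genes, and in 3 every VO library stood below, against 12.9%. All 7 had a group mean FPKM of at least 1 in their higher group alone and became members through it, as did 8 of the 10 members with an unadjusted p under 0.05, so that nothing is read from these counts and the values below are a description. Gm22571, in an intron of Rpl4, had 0 fragments in each sham library and 4, 3 and 3 in VO. The 95% counting interval of the ratio began at 2.16, with no upper end since sham held no fragment. It had the smallest p of the members (adjusted p = 0.157 by limma), and its spread between libraries was 0.0413 times what counting error alone gives. Rpl4 went the other way in its means, with 324 ± 34.0 FPKM in sham and 282 ± 23.2 in VO (n = 3 each, log2 difference -0.20, adjusted p = 0.522 by limma). The other Rpl4 member, Gm23136, had 17 fragments in the sham group and 13 in VO.

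Snord8, in the gene of the chromatin remodeller Chd8, had 0, 0 and 1 fragments in sham and 5, 3 and 7 in VO, a ratio of 14.5 with a counting interval of 2.23 to 609. Gm22661, in Zbed3, had 0, 2 and 0 in sham and 4, 7 and 6 in VO, a ratio of 8.20 with an interval of 1.95 to 73.1. The adjusted p-values were 0.325 and 0.373 by limma. Gm22661 is 93.2% identical to Snora68, and 16 members in all have another snoRNA row at least 90% identical to them, whose reads the counting may have shared. Gm23747, on the strand opposite to Zc3h3, was at 0 in sham and had 11, 2 and 1 fragments in VO, a ratio whose counting interval began at 3.20. VO 1 alone held 11 of its 14 fragments, and the 3 that remain without it give no fold against 0.

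The 3 members with every VO library below sham all lay in protein-coding hosts. AF357399, in the ribosomal protein gene Rps16, had 4, 8 and 7 in sham and 2, 0 and 3 in VO, a ratio of 0.254 with an interval of 0.0741 to 0.703 (adjusted p = 0.410 by limma). Snord71, in the clathrin adaptor gene Ap1g1, had 4, 3 and 1 in sham and 1, 0 and 0 in VO. Its lowest sham library and its highest VO library each rest on 1 fragment, worth 0.722 FPKM in the former and 0.648 FPKM in the latter. Of all members, 15 had a counting interval of the ratio that left out 1, 9 above it and 6 below, with no adjustment for 60 intervals, which cover counting error only. The spread within groups was a median of 1.98 times that error. The intervals were not computed for other genes, and all 7 members without overlap are among the 15, so that nothing is read from this count either.

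The fold changes of the members spread widely about 0. Their median log2 difference was 0.12 (33 higher and 27 lower), beside -0.01 over all tested genes, and it was 0.12 as well when Gm22571 and Gm23747 were given 3 fragments over the sham group, the limit that a count of 0 allows. Without sham 1 it was -0.03. The differences ranged from -4.13 to 4.85 with an SD of 1.72, against 0.40 over all tested genes, and the median SE was 1.00 against 0.16. The pseudocount sets this range, since the upper end is Gm22571, at 0 in sham: it was -1.93 to 1.92 with a pseudocount of 1 and -6.36 to 8.12 with 0.01. Among the 6 members with at least 60 fragments the range shrank to -0.05 to 0.70. Members with C and D boxes had a median of 0.22, which was -0.03 without sham 1, and those with an ACA box -0.27, which was 0.23 without VO 3, so that 1 library set the sign in either class.

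**Figure D4:**
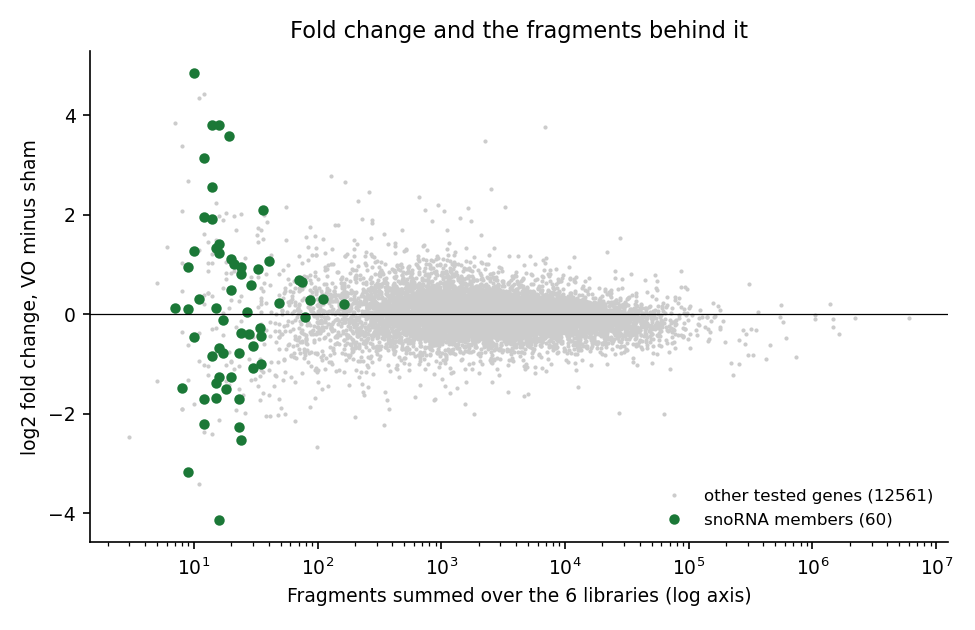
log2 fold change (VO minus sham, y axis) against the fragments summed over the 6 libraries (x axis, log scale) for the 60 members (green) and the other tested genes (grey). The members sit at the left edge, from 7 to 162 fragments, with differences between -4.13 and 4.85 at a pseudocount of 0.1, and those with at least 60 fragments between -0.05 and 0.70.

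Summed over all 60 members, fragments made up slightly more of the VO libraries. The members held 14.5, 16.1 and 15.3 fragments per 1000000 library fragments in sham and 19.3, 16.9 and 17.2 in VO, that is 15.3 ± 0.790 and 17.8 ± 1.33 (SD, n = 3 each). The groups did not overlap, and the difference of 2.52 was 1.75 without VO 1. The sum includes members that entered through a single group. All 1529 rows, chosen by no level, held 307, 369 and 364 fragments in sham and 457, 368 and 357 in VO, with VO 1 the highest. Not divided by library totals, the groups overlapped in these sums and in those of the members. No test was made, since the members were chosen with these levels. The shares are per library total, a scale other than that of the fold changes. With fragment totals the median log2 difference of all tested genes was 0.08, beside -0.01 in the main fit. The ACA box members held 114, 105 and 107 fragments in sham and 134, 124 and 116 in VO. The C/D members held 70, 118 and 89 in sham and 131, 83 and 106 in VO, and overlapped. VO 1 stood apart from the other libraries in other genes too, since the summed FPKM of 4 macrophage markers (Cd68, Csf1r, Adgre1 and Lyz2) was 626 there, 170 and 212 in the other VO libraries, and 145 to 168 in sham. The sum of 5 atrial cardiomyocyte markers, with Nppa and Myl7 among them, was 5603 to 11423 FPKM in VO and 12108 to 18161 in sham, so that every library carried the labelled tissue's markers. The sum of 3 ventricular cardiomyocyte markers (Myl2, Irx4 and Myh7) also differed between libraries, at 71.1, 14.5 and 68.6 FPKM in sham and 12.6, 11.7 and 27.9 in VO. The part of cell composition in the snoRNA values was not tested. Fewer cells of a type and less RNA per cell cannot be told apart in these libraries.

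**Figure D5:**
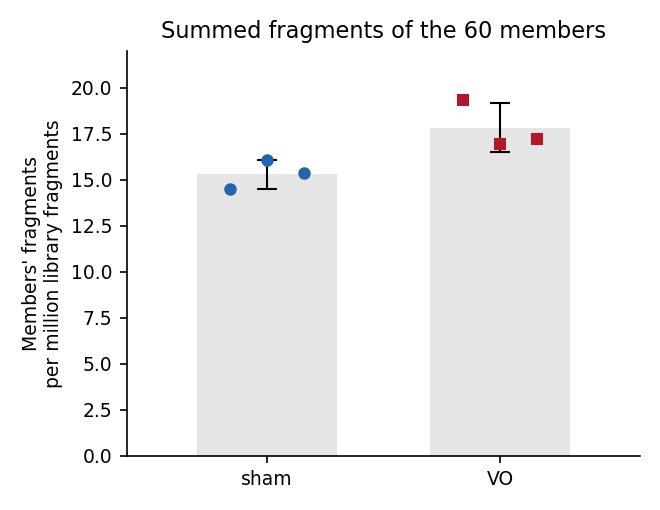
Fragments of the 60 members per 1000000 library fragments (y axis) in each sham (circles) and VO (squares) library; bars are means and error bars the SD of 3 libraries. The sham libraries lie between 14.5 and 16.1 and the VO libraries between 16.9 and 19.3.

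Host genes and their snoRNAs were set side by side. Of the 41 hosts that could be tested, 9 were higher and 32 lower in VO, with a median log2 difference of -0.18, and the median was -0.04 with TPM and -0.03 with quantile normalization. At an unadjusted p under 0.05, 1 host was higher and 8 lower by limma, beside the 3.89% and 8.08% of all tested genes, and 0 passed the adjusted threshold (lowest adjusted p 0.373). These counts became 3 higher and 3 lower with TPM, 1 and 3 with fragment totals, and 0 and 3 without sham 1, and over all single libraries left out 3 to 6 hosts were lower. The largest change among hosts of the members named above was that of Rps16, at 145 ± 31.9 FPKM in sham and 90.7 ± 10.4 in VO (log2 difference -0.66, adjusted p = 0.373 by limma), where AF357399 was also lower. Over the 48 members with a tested host, 27 had a log2 difference of the same sign as the host, and Pearson's r was 0.13. These pairs share libraries, and 7 hosts hold 2 of the members, so that r is a description.

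The RNAs of genes whose proteins work with snoRNAs were measured far more deeply. Of 29 genes for snoRNP (small nucleolar ribonucleoprotein) proteins and their assembly factors, 28 were tested, 7 higher and 21 lower in VO, with a median of -0.17 (-0.03 with TPM). At an unadjusted p under 0.05, 0 rose and 4 fell by limma, beside 3.89% and 8.08% of all tested genes, and 0 passed the adjusted threshold (lowest adjusted p 0.404). The 4 were Fbl, the methyltransferase of the C/D particles, at 5.07 ± 0.284 FPKM in sham and 3.98 ± 0.649 in VO; Gar1, a core protein of the H/ACA particles, at 3.51 ± 0.779 and 2.10 ± 0.374; the assembly factor Pih1d1, at 16.6 ± 2.86 and 11.0 ± 1.80; and Imp3, a protein of the U3 particle, at 55.2 ± 13.9 and 37.7 ± 3.09 (SD, n = 3 each). Without VO 1, 2 of the listed genes had an unadjusted p under 0.05. Dkc1, the pseudouridine synthase of the H/ACA particles, was at 6.86 ± 0.654 and 6.14 ± 0.627 FPKM, and Nop58, a core C/D protein, at 2.18 ± 0.272 and 2.24 ± 0.288, neither with an unadjusted p under 0.05.

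Among 21 genes of RNA polymerase I and ribosome assembly, 1 was higher (Myc) and 6 were lower at an unadjusted p by limma. Of all tested genes, 3.89% and 8.08% were. In this list 0 genes passed the adjusted threshold. The 6 became 2 without sham 1, 2 without sham 2 and 3 without VO 1. The smallest p-values belonged to Polr1c, Bop1, Polr1e and Rrn3, with log2 differences of -0.35, -0.30, -0.41 and -0.33. With TPM or with fragment totals, 1 gene of this list was called higher and 0 lower. Of 17 RNA exosome and decay genes, 0 were higher and 2 lower at an unadjusted p, beside 3.89% and 8.08% of all tested genes. The 2 were Exosc2 (log2 difference -0.54) and Lsm6 (-0.44), and 0 passed the adjusted threshold. With TPM the counts turned to 1 higher and 0 lower, and 1 to 3 were lower without single libraries. Of 22 noncoding host genes of snoRNAs, 14 were tested and 1, Meg3, was called higher at an unadjusted p (log2 difference 0.46, adjusted p = 0.410 by limma), a list count that was 0 without sham 1, sham 3, VO 2 or VO 3. Gas5 was at 9.18 ± 0.853 FPKM in sham and 8.46 ± 0.331 in VO, and Snhg1 at 3.22 ± 0.882 and 3.19 ± 0.499 (SD, n = 3 each). Of 4 tested nuclear-retained noncoding RNAs, Meg3 again was the only call at an unadjusted p. Malat1 was at 22.5 ± 8.05 FPKM in sham and 31.4 ± 4.66 in VO (n = 3 each, adjusted p = 0.439 by limma) and Neat1 at 7.11 ± 0.481 and 7.96 ± 1.70 (adjusted p = 0.706 by limma). The list also holds Xist, which is expressed in females and was near 0 in sham 2 and VO 3, so that its difference is not given.

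The other small RNA rows of the table were counted in the same way. Of 31 tested snRNA rows 3 were higher and 3 lower at an unadjusted p, with a median log2 difference of 0.27, and of 58 tested miRNA rows 4 were higher and 1 lower, with a median of 0.20. The shares of all tested genes were 3.89% higher and 8.08% lower. None of these snRNA and miRNA rows passed the adjusted threshold by limma.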

How the data were processed

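The 3 sham and 3 VO libraries of RA were read from 1 table of FPKM values deposited by the authors. They aligned paired reads with HISAT2 2.0.5, counted them per gene with featureCounts 1.5.0-p3 and calculated FPKM from gene length and counts. The coordinates matched GENCODE M21 (GRCm38) for 98.4% of 54059 shared genes, and 1 incomplete last line was left out. Fragments were recovered as FPKM times length over the step of each library. Values were divided by median-of-ratios factors, which were 1.00213 in all 6 libraries. The deposited values were thus already on that scale, and not on that of library totals. Genes averaging at least 1 FPKM were kept (all 60 members pass, since the rule is nearly the same filter). The kept genes were fitted as log2(FPKM + 0.1), a scale that understates changes of low genes. The fit used limma 3.58.1 (R 4.3.3, eBayes with trend, two-sided, no covariate, Benjamini-Hochberg over 12621 genes, threshold 0.05). Ratio intervals are exact Clopper-Pearson intervals (95%) on fragments and cover counting error only. The fit was tested on simulated data in which every changed gene had more fragments than any member. That test therefore says nothing about the fits of the members. Members and gene lists were chosen with earlier results of these data known. Named members are the 10 with the most fragments and, among those without overlap, up to 5 in each direction by p; others were chosen after their values were seen. Of each list the genes with the smallest p were named, with others added by their role. 1 member and its host are not reported here. Alternatives were other pseudocounts, filters and scalings, limma-voom on recovered fragments, a replicate block and leaving out each library.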

Additional observations from a re-analysis of the deposited data

How the results depend on the processing

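The count of members with an unadjusted p under 0.05 was 10 and became 1 when a mean of at least 10 fragments was required, which left 6 members tested, and 6 with limma-voom; leaving out single libraries gave 9 to 12. Genes with an adjusted p under 0.05 numbered 1, and 2 with a pseudocount of 1, 3 with a mean FPKM of at least 0.1, 0 with quantile normalization and 0 without any single library. Gm22571 had an adjusted p under 0.05 with a pseudocount of 1 (0.0237), with a mean FPKM of at least 0.1 (0.00651) and without a filter (0.0364), over a range of 0.00651 to 0.560 in its alternatives; it is a member only through VO, where it is high, so these values support nothing. TPM moved the median of all genes from -0.01 to 0.13. Libraries with the same replicate number showed no shared deviation (correlations of -0.107, 0.0115 and -0.0287 over genes), which cannot show that the samples were unpaired. With a replicate block 0 genes passed the adjusted threshold. At an unadjusted p under 0.05 the block gave 2 snoRNP genes in place of 4 and 4 lower hosts in place of 8. It gave 3 lower RNA polymerase I and ribosome assembly genes in place of 6 and 1 lower exosome gene in place of 2. The Meg3 call became 0, and 11 members were called. Leaving out single libraries gave 2 to 5 snoRNP genes. Of 278 alternative values of the 17 named members, 9 had the other sign, all in 3 members. Gm22771 became 0.0869 with TPM and 0.0409 with fragment totals, and ran from -0.38 to 0.17 without single libraries; Snord91a ran from -0.0904 to 0.48 and Snord72 from -0.24 to 0.99 (log2). The cause was not tested. The median of the members and their share of fragments moved by less than the spread between libraries. With a median of 3 fragments behind a value, depth limits every comparison of single members.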
